A study of Mus musculus with 21 samples.

Results

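AMP-activated protein kinase (AMPK) is assembled from 1 catalytic α, 1 scaffolding β and 1 nucleotide-binding γ subunit, and the genes that encode these subunits were examined together with Stk11, which encodes the upstream kinase LKB1. The genes were chosen by name, with earlier results of these data known. They are Prkaa1 (α1), Prkaa2 (α2), Prkab1 (β1), Prkab2 (β2), Prkag1 (γ1), Prkag2 (γ2), Prkag3 (γ3) and Stk11, which are 8 of the 40853 genes counted in the gastrocnemius muscle. All 8 passed the filter on low counts that left 16129 genes to be tested.

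AMPK senses a fall in cellular energy. AMP and ADP bind the γ subunit, and LKB1 phosphorylates a threonine in the activation loop of the α subunit. In contracting skeletal muscle the active kinase is known to promote glucose uptake and fatty acid oxidation, and the complex that holds α2, β2 and γ3 is known as a form of glycolytic muscle fibers. Transcript levels do not report on the phosphorylation or the activity of the kinase, neither of which was measured in these libraries.

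The activation loop is shown because it is the site on which Stk11 and the α subunits meet. The stretches below are 66 bases of the coding sequence of each gene's canonical transcript (GENCODE M39, GRCm39), 5′ to 3′, and capitals mark the 11 bases at which they differ.
Prkaa1: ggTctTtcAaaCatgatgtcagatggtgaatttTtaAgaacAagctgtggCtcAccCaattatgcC
Prkaa2: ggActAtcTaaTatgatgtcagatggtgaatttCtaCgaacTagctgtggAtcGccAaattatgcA
The codon of the threonine that LKB1 phosphorylates occupies bases 40 to 42, and both stretches translate to the same amino acids. The other 55 bases are identical. Over the whole transcripts, the longest run of bases shared by Prkaa1 and Prkaa2 was 35 bases. The longest shared run was 23 bases for Prkab1 and Prkab2, and 17, 15 and 11 bases for Prkag2 with Prkag3, Prkag1 with Prkag2, and Prkag1 with Prkag3.

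RNA came from the whole medial belly of the gastrocnemius of 21 female C57BL/6NJ mice, with 1 library per mouse and 7 mice in each group. All mice entered the study at 10 weeks of age. The Inactive group stayed in standard housing without training, the Active group ran on a treadmill for 6 weeks, and the Activity Reduction group ran for 4 weeks and was then inactive for 2 weeks. Training meant 5 sessions a week of up to 40 min, in which a slow warm-up came before running at about 70% of maximal speed. Every mouse, Inactive mice included, ran a maximal test 48 to 72 h before tissue collection, and all were fasted. The sample records give the fast as 5 to 6 h and the study's methods as 4 to 6 h. The groups therefore share 1 recent bout of running and a short fast. The total count per library lay between 38482455 and 59785132, with a median of 53278181 in the Inactive, 46532461 in the Active and 49829192 in the Activity Reduction group. Every Active library was smaller than every Inactive library, so depth moved with the group in that comparison, and its part in the results was not tested beyond the scaling of the counts. The 3 comparisons between groups share samples with each other.

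The libraries held the markers of the labelled tissue. The 6 myofiber markers summed to between 74492 and 81532 CPM, the counts scaled to the library total, in every library, and Acta1 was the most abundant of them. The 12 liver markers, of which Alb was the most abundant and none was at 0, divided the libraries by mouse number. They summed to between 623 and 1908 CPM in the 8 libraries of mice M304 to M311, which are Active replicates 1 to 5, Activity Reduction replicates 1 and 2 and Inactive replicate 1. They summed to between 134 and 293 CPM in the 13 libraries of mice M312 to M325. The group medians of this sum were 1355 CPM in the Active, 270.3 CPM in the Activity Reduction and 220.4 CPM in the Inactive group, and several comparisons are also given for mice M312 to M325 alone, among which there are 2 Active mice.

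The 8 genes were measured at very different levels. Levels between genes are compared as normalized counts per kb of merged exons, as mean ± SD over the 21 libraries. Prkab2 stood highest at 2376 ± 154 per kb, followed by Prkaa2 at 2021 ± 116 per kb and Stk11 at 1564 ± 97.6 per kb. Prkag3 stood at 1250.5 ± 305.1 per kb and Prkag1 at 552 ± 26.3 per kb. Prkab1 (146 ± 17.1 per kb) and Prkaa1 (134 ± 9.16 per kb) were far lower, and Prkag2 was lowest at 40.9 ± 7.33 per kb. Neighbors in this order overlapped in 3 places. Prkab2 was above Prkaa2 in 20 of 21 libraries, Stk11 was above Prkag3 in 17 of 21, and Prkab1 was above Prkaa1 in 16 of 21. All other neighbors were separate in every library. By mean, the lower part of the order was the same with other gene lengths, but Prkag2 and Prkaa1 were then not separate in every library. Prkag2 has 11557 bases of merged exons but 3272 in its canonical transcript, and with the latter its mean nearly reached that of Prkaa1. With the length of the canonical transcript Prkaa2 moved from second to 4th place, below Stk11 and Prkag3.

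**Figure D1:**
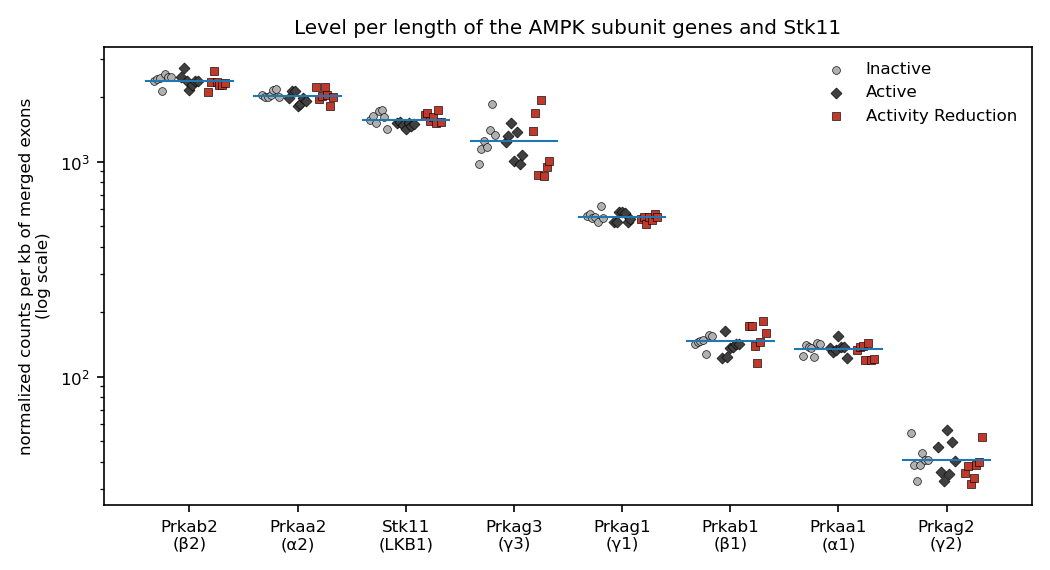
Level per length of each gene in each library, as normalized counts per kb of merged exons on a log axis, with 1 point per mouse, marked by group, and a blue line at the mean of the 21 libraries. Prkab2, Prkaa2, Stk11 and Prkag3 lie at or above 857.8 per kb in every library and Prkag2 reaches at most 56.7 per kb.

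Within each subunit class 1 gene held most of the transcript, and it was the muscle-typical one. Prkaa2 held 93.8% of the α class per length (range 92.2% to 94.9% over 21 libraries), and Prkab2 held 94.2% of the β class (92.5% to 95.3%). The γ class was more mixed. Prkag3 held 67.1% (60.01% to 76.7%), Prkag1 held 30.6% (21.9% to 37.3%) and Prkag2 held 2.30% (1.34% to 3.45%), or 3.66% with the length of the canonical and 4.66% with that of the longest transcript. The Prkag3 share was 67.9% ± 4.00 in the Inactive, 66.8% ± 3.81 in the Active and 66.6% ± 6.99 in the Activity Reduction group (SD, n = 7 each), so the group means lay closer together than the mice of any group. The Prkaa2 share was 93.8% ± 0.422, 93.5% ± 0.699 and 94.0% ± 0.551, groups ordered as before, and the Prkab2 share was 94.3% ± 0.529, 94.5% ± 0.451 and 93.7% ± 1.10. These shares are descriptions of transcript, since the amount of each subunit protein was not measured.

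**Figure D2:**
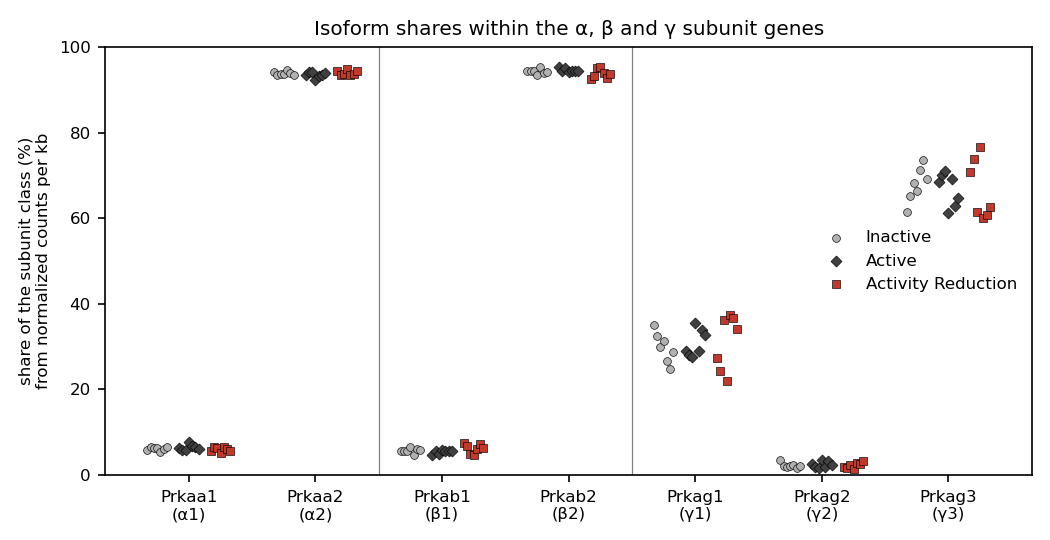
Share of each gene within its subunit class (α, β or γ) in percent, from normalized counts per kb of merged exons, with 1 point per mouse, marked by group, and vertical lines between the classes. Prkaa2 and Prkab2 hold over 92% of their class in every library, and Prkag3 and Prkag1 spread over 60.01% to 76.7% and 21.9% to 37.3%.

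The question asked of the 3 comparisons was whether 6 weeks of training, or its cessation, changed the amount of any of these transcripts. Expression of none of the 8 genes differed between groups at the threshold used for a call, an adjusted p-value under 0.05 with a log2 fold change over 0.25 in either direction. In edgeR's quasi-likelihood test 0 of 8 were called in each of the 3 comparisons, where 0% of all genes tested were called for Active vs. Inactive, 0.0124% for Activity Reduction vs. Inactive and 0% for Activity Reduction vs. Active. DESeq2 called 0 of 8 as well. Of all genes with an adjusted p-value it called 0.524%, 0.812% and 0.791% in the 3 comparisons when fitted on all 3 groups, and 0.591%, 0.258% and 1.03% when fitted on the 2 groups compared. The fit on 3 groups gave an adjusted p-value for 4 of the 8 genes in Activity Reduction vs. Inactive and for all 8 in the other comparisons. At an unadjusted p-value under 0.05, 1 of 8 was lower in the Active than in the Inactive group (4.69% of all genes tested), 0 of 8 differed between the Activity Reduction and Inactive groups (7.73% of all genes in either direction) and 1 of 8 was higher in the Activity Reduction than in the Active group (6.89% of all genes). Both of these were Stk11. The median log2 fold change of the 8 genes was -0.037, -0.040 and 0.0041 in the 3 comparisons, beside 0.0052, 0.0057 and -0.00065 for all genes tested. None of the 8 separated a pair of groups without overlap, as did 0.254%, 0.118% and 0.291% of all genes tested in the 3 comparisons, so a count of 0 among 8 says little about these genes. In whole muscle, fewer cells or fibers of a type and less RNA in each of them cannot be told apart.

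**Figure D3:**
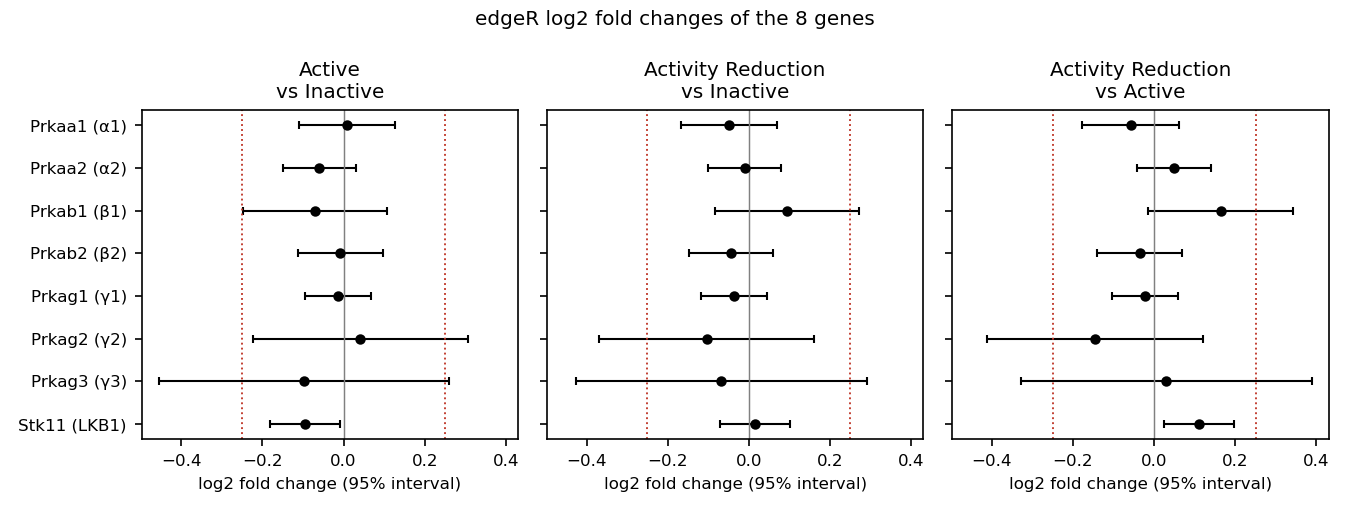
Log2 fold change of each gene in the 3 comparisons from edgeR, as a point with its 95% interval, with dotted lines at the threshold of 0.25 in either direction. The intervals of Stk11 leave out 0 for Active vs. Inactive and for Activity Reduction vs. Active but stay inside the dotted lines, and those of Prkag3 and Prkag2 are the widest.

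Prkaa2 encodes the catalytic α2 subunit. Its normalized counts ran from 16622 through a median of 16910 to 18188 in the Inactive group, from 15172 through 16443 to 17659 in the Active group and from 15131 through 16822 to 18437 in the Activity Reduction group. The 3 groups overlapped, although 5 of 7 Active mice lay below every Inactive mouse. The Active mean was lower than the Inactive mean by a log2 fold change of -0.06 (SE 0.0437, adjusted p = 0.644), which is -4.06% with a 95% interval from -9.90% to 2.16%. The difference of the Activity Reduction group from the Inactive group was -0.01 on the log2 scale, and that from the Active group was 0.05. Prkaa2 varied little, with a highest value 1.22 times its lowest.

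Prkaa1 encodes the α1 subunit, which is widespread among tissues. It ran from 658 through 731 to 761 normalized counts in the Inactive, from 648 through 724 to 817 in the Active and from 637 through 705 to 763 in the Activity Reduction group. The group means of 720 ± 41.9, 720 ± 51.5 and 693 ± 54.2 (SD, n = 7 each) differed by less than 1 SD. The log2 fold changes were 0.01 for Active vs. Inactive (95% interval -0.11 to 0.13) and -0.05 for Activity Reduction vs. Inactive (-0.17 to 0.07). The sign of the first was negative with a term for mice M304 to M311 and in mice M312 to M325 alone. In percent, these intervals ran from -7.40% to 9.16% and from -11.0% to 4.87%.

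Prkab2 encodes the β2 subunit, which carries a glycogen-binding module and is the β form most abundant in muscle. It held the most counts of the 8 genes, from 23180 through 26556 to 27923 in the Inactive, from 23441 through 25732 to 29745 in the Active and from 22999 through 25320 to 28630 in the Activity Reduction group. The lowest Inactive value belonged to replicate 4, the other 6 Inactive mice lay between 25957 and 27923, and the 3 groups overlapped. The log2 fold changes were -0.01 for Active vs. Inactive (SE 0.0501, adjusted p = 0.973) and -0.04 for Activity Reduction vs. Inactive (SE 0.0501, adjusted p = 0.918), and the first was 0.01 with a term for mice M304 to M311. Over the alternatives the second ranged from -0.09 to -0.03. The value of -0.09 came with library totals alone as the scaling, where the median of all genes tested moved from 0.0057 to -0.039. At its lowest the unadjusted p-value was just under 0.05, but no adjusted p-value was.

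Prkab1, which encodes the β1 subunit, was measured at 390 through 448 to 479 normalized counts in the Inactive, 374 through 420 to 501 in the Active and 355 through 487 to 554 in the Activity Reduction group. The Activity Reduction mice held both the lowest and the highest value of the 21. In this group, 6 mice lay above the Active median, and the mean was 12.1% higher than in the Active group (95% interval -0.958% to 26.8%, log2 fold change 0.16, SE 0.0860, adjusted p = 0.418 in edgeR). Without the libraries of mice M304 to M311 this difference was 0.06 on the log2 scale.

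**Figure D4:**
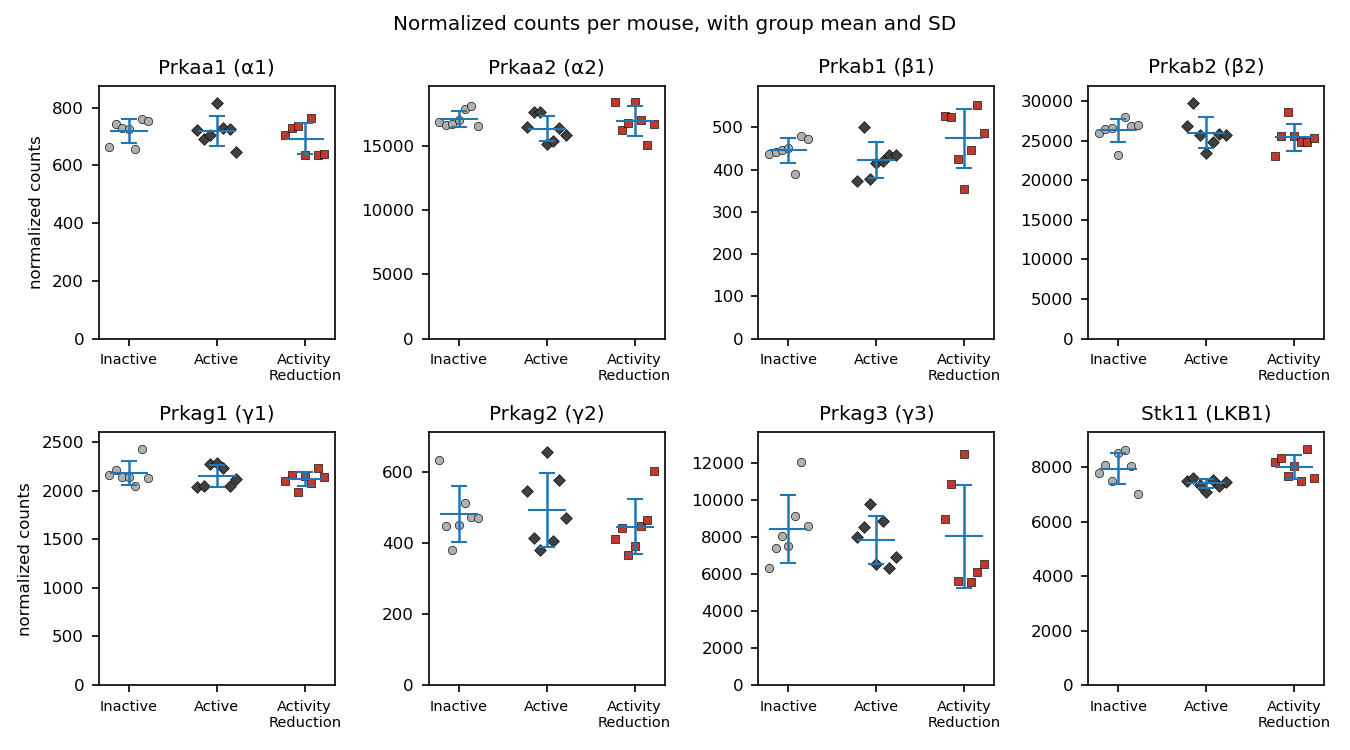
Normalized counts of each gene in each mouse, with 1 panel per gene, every axis starting at 0, points marked by group, and blue bars for the group mean and SD (n = 7 each). The groups overlap in every panel, Prkag3 has the widest spread, and the Stk11 values of the Active mice lie between 7087 and 7603.

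Prkag3 encodes the γ3 subunit, which is largely restricted to skeletal muscle and is known from fast, glycolytic fibers. Its normalized counts ran from 6336 through 8083 to 12069 in the Inactive, from 6335 through 7985 to 9777 in the Active and from 5567 through 6535 to 12523 in the Activity Reduction group. The Activity Reduction mice fell apart into 4 at or below 6535 and 3 at or above 9003, with the 3 lowest values of all 21 mice as well as the highest. The 3 high mice were replicates 1, 2 and 4, of which replicates 1 and 2 belong to mice M304 to M311. In this group the mean was 9942 in the 2 mice of M304 to M311 and 7274 ± 2961 (SD) in the 5 of M312 to M325. The part of this division in the spread was not tested. The group means were 8450 ± 1830, 7856 ± 1293 and 8037 ± 2799 (SD, n = 7 each). The log2 fold change was -0.10 for Active vs. Inactive (95% interval -0.46 to 0.26), -0.07 for Activity Reduction vs. Inactive (-0.43 to 0.29) and 0.03 for Activity Reduction vs. Active (-0.33 to 0.39), all with adjusted p-values of 0.879 or more in edgeR. In percent, the intervals ran from -27.1% to 19.8%, from -25.6% to 22.3% and from -20.3% to 30.9%. With library totals alone as the scaling the last log2 fold change was -0.01, where the median of all genes tested moved from -0.00065 to -0.039. In mice M312 to M325 alone, with 2 Active and 6 Inactive mice, Active vs. Inactive was -0.40 on the log2 scale, with means of 6642 and 8802, and the mean of the other 5 Active mice was 8342. In the same mice Activity Reduction vs. Inactive was -0.28 (adjusted p = 0.782 in edgeR) and Activity Reduction vs. Active was 0.12.

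Prkag1, which encodes the widespread γ1 subunit, had the lowest within-group SD of the 8 genes. It ran from 2047 through 2142 to 2428 normalized counts in the Inactive, from 2033 through 2116 to 2279 in the Active and from 1986 through 2141 to 2230 in the Activity Reduction group. The groups lay on top of each other, and the 95% interval for Activity Reduction vs. Inactive ran from -7.84% to 3.17%. Prkag2 encodes the γ2 subunit, which is best known from the heart. It ran from 379 through 471 to 632, from 379 through 469 to 655 and from 365 through 441 to 602 in the Inactive, Active and Activity Reduction groups. Its log2 fold changes were 0.04 for Active vs. Inactive (SE 0.128, adjusted p = 0.937), -0.10 for Activity Reduction vs. Inactive (SE 0.128, adjusted p = 0.930) and -0.15 for Activity Reduction vs. Active (SE 0.129, adjusted p = 0.650), and each 95% interval included 0. In mice M312 to M325 alone these were 0.20, -0.0063 and -0.21, and the Inactive mouse left out there held 632 normalized counts beside a mean of 455 in the other 6.

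Stk11 encodes LKB1, the main AMPK kinase of muscle. It was the only gene of the 8 with a p-value under 0.05 before adjustment in the main edgeR fit. That fit held all 21 libraries, with TMM scaling and group as its term. It ran from 7038 through 8066 to 8655 normalized counts in the Inactive, from 7087 through 7473 to 7603 in the Active and from 7503 through 8037 to 8679 in the Activity Reduction group. All 7 Active mice lay below the Inactive median, yet within the Inactive range, and 6 of 7 Activity Reduction mice lay above every Active mouse. The Active mice were also closer together, with an SD of 176 around a mean of 7413, beside 564 around 7951 in the Inactive and 431 around 8010 in the Activity Reduction group. The Active level was lower than the Inactive level by 6.34% (95% interval -11.8% to -0.555%, log2 fold change -0.09, SE 0.0417, adjusted p = 0.426 in edgeR). The Activity Reduction level was 7.91% higher than the Active level (1.64% to 14.6%, log2 fold change 0.11, SE 0.0417, adjusted p = 0.258) and differed from the Inactive level by 1.07% (-4.80% to 7.31%, adjusted p = 0.979). The first 2 of these comparisons share the 7 Active mice. Neither difference passed the adjusted threshold, and over the alternatives the adjusted p-value ranged from 0.282 to 0.876 for Active vs. Inactive and from 0.115 to 0.981 for Activity Reduction vs. Active. The log2 fold change of the latter ranged from 0.07, with library totals alone as the scaling, to 0.12, with a term for mice M304 to M311. Stk11 is given here for the 8 libraries rich in liver transcripts and then for the other 13. The Active mean was 7417 in 5 and 7401 in 2 mice, the Activity Reduction mean was 8277 in 2 and 7904 in 5, and the Inactive value was 7779 in 1 and 7980 in 6.

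The mice varied around their group means by amounts that differed between the genes. The within-group SD on the log2 scale was 0.07 for Prkag1, 0.08 for Stk11 and Prkaa2, 0.10 for Prkab2 and Prkaa1, 0.16 for Prkab1, 0.25 for Prkag2 and 0.35 for Prkag3. Among the 8450 tested genes with a mean above 300 normalized counts the median SD was 0.11. Prkag1 varied less than most of them, since 9.14% had a lower SD. Prkag3 varied more than most, since 96.6% had a lower SD, and counting error alone gives it a coefficient of variation of 1.11%. Its highest value was 2.25 times its lowest over the 21 mice.

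Prkag3 was set beside the myosin heavy chain genes because the γ3 subunit is known to differ between fiber types. Myh7, the slow myosin of type I fibers, averaged 27988 ± 3146 normalized counts in the Inactive, 23939 ± 7443 in the Active and 16720 ± 7898 in the Activity Reduction group (SD, n = 7 each). Over the 21 mice, each gene less its group mean, Prkag3 was lower where Myh7 was higher (Pearson's r = -0.681, permutation p = 0.00350, adjusted p = 0.0700 over 40 relations; Spearman's rho = -0.643, permutation p = 0.00874, adjusted p = 0.218). This was the strongest r of the 40 relations computed, between the 8 genes and Myh4, Myh1, Myh2, Myh7 and Alb, and none of the 40 passed after adjustment. To see the weight of single mice, 2 were left out, those whose Myh7 less its group mean lay farthest from the median of these deviations. Without them (Activity Reduction replicate 4 and Active replicate 3) r was -0.500. It was -0.328 in the 8 mice M304 to M311 and -0.816 in the 13 mice M312 to M325. For these subsets and those below, deviations were still taken from the mean of all 7 mice of a group. Differences between groups within a subset are therefore not fully removed. The relation of Prkab2 to Myh4, the fast myosin of type IIB fibers, was r = 0.643 (permutation p = 0.00289, adjusted p = 0.0700), but rho was 0.366 (permutation p = 0.115, adjusted p = 0.765). Without the 2 mice chosen in the same way for Myh4 (Activity Reduction replicate 1 and Active replicate 4), its r was 0.482. It was 0.911 in the 8 mice M304 to M311 and 0.286 in the 13 mice M312 to M325. The relation of Prkaa2 to Myh2, the fast myosin of type IIA fibers, was r = -0.602 (permutation p = 0.00900, adjusted p = 0.120) with a rho of -0.582 (permutation p = 0.0109, adjusted p = 0.218). Without the 2 mice chosen in the same way for Myh2 (Activity Reduction replicate 1 and Active replicate 2), its r was -0.436. It was -0.814 in the mice M304 to M311 and -0.298 in the mice M312 to M325. Whether the makeup of the dissected belly had a part in these relations was not tested.

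**Figure D5:**
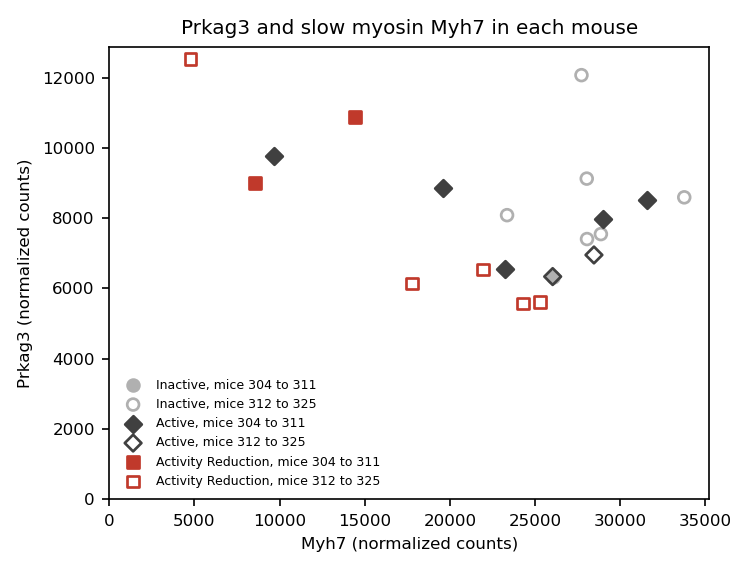
Prkag3 against the slow myosin gene Myh7, both in normalized counts on axes that start at 0, with 1 point per mouse, marked by group, and filled for mice M304 to M311. The Activity Reduction mouse with the fewest Myh7 counts (4768) has the most Prkag3 counts (12523), and the filled Inactive point lies under an open Active point near 6336.

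By the likeness of their deviations from the group means over the 21 libraries, among 11013 genes with a mean of at least 100 normalized counts, the genes most like Prkag3 were Mlec (r = 0.904), Atp6v0a1 (r = 0.902) and Plpp7 (r = 0.895). For Prkaa2 they were Eya4 (r = 0.849), Dcun1d1 (r = 0.844) and Lnpk (r = 0.841), and for Prkab2 they were Lrtm1 (r = 0.834), Kif21a (r = 0.797) and Arid4b (r = 0.795). For Prkag2 they were Ppp1r3e (r = 0.826), Sco1 (r = 0.795) and Adk (r = 0.783). The nearest genes were less close for the others, with Rnps1 for Prkab1 (r = 0.784), Catsper2 for Stk11 (r = 0.787), Ifnar2 for Prkaa1 (r = 0.758) and Mrpl45 for Prkag1 (r = 0.751). Spearman's rho was 0.825 for Rnps1, 0.588 for Catsper2, 0.725 for Ifnar2 and 0.610 for Mrpl45. Each r is the highest among 11013 genes, and none was tested against chance. None of the 8 genes was among the nearest 3 of another. Of the pairs among the 8, Prkaa2 with Prkag3 had the highest r (0.534) and Prkab2 with Prkag1 the lowest (-0.415).

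The rest of the pathway was followed in 8 lists of 53 genes, all of which were tested. In edgeR 0 of 53 were called in each comparison. At an unadjusted p-value under 0.05, 2 were higher and 4 lower in the Active than in the Inactive group (6.18% and 4.69% of all genes), 7 were higher and 2 lower in the Activity Reduction than in the Inactive group (4.19% and 3.54%), and 6 were higher and 5 lower in the Activity Reduction than in the Active group (6.89% and 6.44%). Median log2 fold changes over the 53 genes were -0.0039, -0.0030 and 0.022. DESeq2 called 0, 0 and 1 of the 53 in either of its fits. In the fit on 3 groups 48, 23 and 52 of the 53 had an adjusted p-value, and 0.524%, 0.812% and 0.791% of all such genes were called. In the fit on the 2 groups compared these were 49, 53 and 51 genes, beside 0.591%, 0.258% and 1.03%.

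Upstream of AMPK, the gene that DESeq2 called was Camkk2, which encodes a calcium-dependent kinase of the same activation-loop threonine. It was counted at 135 through 179 to 197 normalized counts in the Inactive, 132 through 194 to 219 in the Active and 118 through 138 to 149 in the Activity Reduction group. The Activity Reduction values were tightly placed at the low end of both other groups, and Active replicate 6 and Inactive replicate 1 lay among them. The Activity Reduction vs. Active log2 fold change was -0.43 (SE 0.111, adjusted p = 0.126 in edgeR), and the adjusted p-value in DESeq2 was 0.0362 with 3 groups and 0.0440 with the 2 groups compared. In mice M312 to M325 alone, which left 2 Active mice, it was -0.11 (adjusted p = 0.981 in edgeR). Of the 3 other upstream kinases, Camkk2, Camkk1 and Map3k7, 2 were lower at an unadjusted p-value under 0.05 for Activity Reduction vs. Active (Camkk2 and Camkk1, beside 6.44% of all genes) and 1 for Activity Reduction vs. Inactive (Camkk2, beside 3.54%). Camkk2 was also lower than in the Inactive group (log2 fold change -0.30, adjusted p = 0.495 in edgeR). The average log2 CPM was -0.591 for Camkk1, beside 1.74 for Camkk2, so the values of Camkk1 rest on few reads. Among the 4 LKB1 partners, 0 were at an unadjusted p-value under 0.05 for Active vs. Inactive, and 1 was higher at this level in each of the other comparisons (4.19% and 6.89% of all genes), in both cases Cab39, which encodes the scaffold MO25α.

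Of the 3 phosphatases of the activation loop, Ppm1f was higher in the Active than in the Inactive group by 0.20 on the log2 scale (SE 0.0700, adjusted p = 0.330 in edgeR), with means of 1018 ± 94.0 and 889 ± 58.2. For Activity Reduction vs. Active its log2 fold change was -0.17 (adjusted p = 0.290) and that of Ppm1a was 0.09 (adjusted p = 0.327), both under 0.05 before adjustment, as were 6.44% of all genes for lower and 6.89% for higher levels. Ppm1a was higher in the Activity Reduction than in the Inactive group by 0.11 (SE 0.0384, adjusted p = 0.495). Of the 6 AMPK partners and activators, 1 was lower at an unadjusted p-value under 0.05 than in the Inactive group in both trained groups, namely Sesn1, which encodes a stress-induced activator of AMPK (beside 4.69% and 3.54% of all genes), and 0 were at this level for Activity Reduction vs. Active (13.3% in either direction). Its means were 1700 ± 302 in the Inactive, 1431 ± 197 in the Active and 1396 ± 160 in the Activity Reduction group. Of the 12 AMPK-related kinases that LKB1 also activates, 0 were at this level in any of the 3 comparisons in edgeR, beside 10.9%, 7.73% and 13.3% of all genes.

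Downstream, the 11 substrates in metabolism had 1 higher and 0 lower at an unadjusted p-value under 0.05 for Active vs. Inactive, 1 and 0 for Activity Reduction vs. Inactive and 1 and 2 for Activity Reduction vs. Active. The shares of all genes tested were 6.18% and 4.69%, 4.19% and 3.54%, and 6.89% and 6.44%. The gene higher for Activity Reduction vs. Inactive was Tbc1d1, and for Activity Reduction vs. Active Pfkfb4 was higher and Acaca was among the lower. Tbc1d1, which encodes a regulator of glucose transporter traffic, had means of 4047 ± 1027 in the Inactive, 4858 ± 958 in the Active and 5910 ± 2145 in the Activity Reduction group. The Activity Reduction vs. Inactive log2 fold change was 0.55 (SE 0.198, adjusted p = 0.495 in edgeR), and the ranges overlapped.

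Of the 6 substrates in growth, autophagy and mitochondria, 3 had a lower level at an unadjusted p-value under 0.05 for Active vs. Inactive (Tsc2, Ulk1 and Becn1, beside 4.69% of all genes), 1 a higher level for Activity Reduction vs. Inactive (Eef2k, beside 4.19%) and 2 a higher level for Activity Reduction vs. Active (Eef2k and Becn1, beside 6.89%). None of them passed after adjustment. By sign alone, 6 of 6 were lower for Active vs. Inactive and 6 of 6 higher for Activity Reduction vs. Active, beside 48.4% and 49.8% of all genes tested, and these comparisons share the Active mice. In mice M312 to M325 alone this did not hold, since the log2 fold change of Rptor, which encodes the mTORC1 subunit Raptor, was 0.02 for Active vs. Inactive, and for Activity Reduction vs. Active that of Rptor was -0.04 and that of Tsc2 was -0.0054. Tsc2, which encodes an inhibitor of mTORC1 signaling, was lower in the Active than in the Inactive group by a log2 fold change of -0.10 (SE 0.0411, adjusted p = 0.397 in edgeR). Eef2k, which encodes a kinase that slows translation elongation, was higher in the Activity Reduction than in the Active group by 0.20 (SE 0.0633, adjusted p = 0.180), with means of 4360 ± 424 and 3787 ± 272. Of the 8 genes in the list of transcription, which holds regulators and 1 gene known as a target, Slc2a4, which encodes the glucose transporter GLUT4, 0 were at an unadjusted p-value under 0.05 for Active vs. Inactive (beside 10.9% of all genes in either direction), 3 were higher at this level for Activity Reduction vs. Inactive (Mef2d, Ppargc1a and Slc2a4, beside 4.19%) and 1 for Activity Reduction vs. Active (Ppargc1a, beside 6.89%). None of these passed after adjustment, and by sign alone 4, 5 and 6 of the 8 were higher in the 3 comparisons, beside 51.6%, 52.2% and 49.8% of all genes tested. Mef2d, a transcription factor of muscle genes, was higher in the Activity Reduction than in the Inactive group by 0.12 (SE 0.0426, adjusted p = 0.495).

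Of the pathway genes named here, some differences moved by more than 1.5 times in mice M312 to M325 alone. For Active vs. Inactive, the log2 fold change of Sesn1 went from -0.24 to -0.09 and that of Tsc2 from -0.10 to -0.06. For Activity Reduction vs. Inactive, that of Mef2d went from 0.12 to 0.05 and that of Ppargc1a from 0.14 to 0.21. For Activity Reduction vs. Active, it went from -0.30 to -0.07 for Acaca, from -0.74 to -0.09 for Camkk1 and from 0.09 to 0.04 for Ppm1a, beside the fall in size for Camkk2 given above. These 8 differences kept their sign, and none passed after adjustment in edgeR in either set of mice. With library totals as the scaling, Activity Reduction vs. Inactive went from 0.11 to 0.06 for Ppm1a, from 0.12 to 0.07 for Mef2d and from 0.13 to 0.09 for Eef2k. Activity Reduction vs. Active went from 0.09 to 0.05 for Ppm1a. None of these stayed under 0.05 before adjustment in edgeR. This scaling moved the median of all genes tested to -0.039 in both comparisons.

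Markers of other cells were measured beside these genes as summed CPM, given as group medians in the order Inactive, Active and Activity Reduction. Markers of endothelium were at 173, 191 and 164 CPM, those of fibroblasts at 212, 230.2 and 175 CPM and those of macrophages at 16.4, 22.3 and 16.1 CPM. Those of adipocytes were at 15.0, 14.3 and 13.6 CPM, of Schwann cells at 40.7, 42.9 and 50.3 CPM, of erythroid cells at 55.2, 67.6 and 61.2 CPM and of satellite cells at 5.10, 5.32 and 5.48 CPM. Markers of slow fibers were at 900.2, 844 and 575 CPM. The fast myosins stood at 75684, 86793 and 82599 CPM for Myh4, 4610.1, 4680 and 4385 CPM for Myh1 and 3208, 3377 and 3327 CPM for Myh2. Every marker was counted in at least 1 library. Their part in the differences of Stk11 and Camkk2 was not tested.

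The positions of the 8 genes (GRCm39, GENCODE M39, all protein coding) bear on what their counts hold, because reads were counted over exons and the strand setting is not given in the sources used here. Prkaa1 lies at chr15:5173186-5211750 on the plus strand and Prkaa2 at chr4:104886845-104967102 on the minus strand. Prkab1 lies at chr5:116151645-116162567 (minus) and Prkab2 at chr3:97565509-97581146 (plus). Prkag1 lies at chr15:98710177-98729434 (minus), Prkag2 at chr5:25067728-25306439 (minus) and Prkag3 at chr1:74775818-74788380 (minus). Stk11 lies at chr10:79951597-79966520 (plus). Genes on the opposite strand overlap 5 of them. Exons of the antisense RNA B130046B21Rik cover 38.8% of the exon bases of Prkag1, and exons of Cyp27a1, which encodes a sterol hydroxylase, cover 16.8% of those of Prkag3. For Prkag2 the share was 9.35% with 2900005J15Rik, 6.88% with Prkag2os2 and 2.49% with Prkag2os1. It was 4.76% for Stk11 with Cbarp and 4.55% for Prkaa1 with Gm15938. B130046B21Rik and Prkag2os2 were not found under these names among the genes counted, unlike the other overlapping genes. How far their reads entered the counts of Prkag1 and Prkag2, and so the γ shares, was not tested. Cyp27a1 was itself counted at 2973, 2805 and 3113 normalized counts in the Inactive, Active and Activity Reduction groups, and how far the 2 genes share reads was not tested. Exons of Prkaa2, Prkab1 and Prkab2 overlapped no other annotated gene.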

How the data were processed

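Poly(A)-selected RNA of 21 gastrocnemius samples was sequenced as paired ends. The deposited values are raw counts for 40853 genes, which the authors made with fastp (trimming), STAR (alignment to GRCm39) and featureCounts. Tool versions, the annotation release and the strand setting are not given in the sources used here. A second deposited table, named as normalized, held the same 857913 values and was not used. Normalized counts are raw counts divided by DESeq2 size factors over the 21 libraries. Replicates are single mice, and within-group pairs of libraries differed by far more than counting noise (chi-square per degree of freedom 11.2 to 122 in 63 pairs). Groups were compared in 1 edgeR 4.0.16 quasi-likelihood fit of all 21 libraries (TMM, filterByExpr, group as the only term), with Benjamini-Hochberg adjustment over the 16129 genes tested, in R 4.3.3. Fold changes are log2, SEs are |log2 fold change| over the root of F, and intervals are 95%. The study states its size threshold both as a fold change of 0.25 and as a 20% change. Here 0.25 was taken as log2, which is 18.9% higher or 15.9% lower, and a 20% change was run as an alternative. DESeq2 1.42.0, other scalings, no filter, a term for mice M304 to M311, mice M312 to M325 alone and a replicate block were run as alternatives. Correlations used log2(normalized count + 1) less group means, with 100000 permutations within groups. The tests were also checked on simulated counts, but no result of that check is given here. Gene models and sequences are from GENCODE M39. The 8 genes, the pathway and marker lists and the division of mice were chosen with earlier results of these data known. Named were all 8 genes, any called pathway gene, and the 3 pathway genes with the smallest p-value in each comparison; other pathway genes were named after their values were seen. One gene that the rule names is not reported here. For likeness, the 3 genes with the highest r were taken.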

Additional observations from a re-analysis of the deposited data

Results flagged for a closer look

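Of the 24 sets of 7 values (8 genes in 3 groups), 2 held a sample whose gap to its nearest neighbor was a larger part of the group's whole range than Dixon's 95% limit for 7 samples. Chance marks about 1 in 20 such sets. For Prkab2, Inactive replicate 4 had 23180 normalized counts, below the other 6 Inactive mice at 25957 to 27923 (gap 0.585 of the range). For Prkag2, Activity Reduction replicate 7 had 601.9 normalized counts, above the other 6 mice of its group at 365 to 463 (gap 0.587 of the range).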

How the results depend on the processing

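In all 27 combinations of comparison and alternative, 0 of the 8 genes were called, and 185 of 192 log2 fold changes kept their direction. The 7 that turned were small. With a term for mice M304 to M311, Active vs. Inactive became -0.015 for Prkaa1 and 0.0069 for Prkab2. In mice M312 to M325 alone, it became -0.079 for Prkaa1, Activity Reduction vs. Inactive became -0.015 for Stk11 and Activity Reduction vs. Active became 0.018 for Prkag1. With library totals as the scaling, Activity Reduction vs. Inactive became -0.029 for Stk11 and Activity Reduction vs. Active -0.010 for Prkag3. This scaling moved the median of all genes tested from 0.0057 to -0.039 and from -0.00065 to -0.039 in these comparisons. The cause of the 7 turns was not tested.

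The number of all genes called moved more, from 0, 2 and 0 in edgeR for Active vs. Inactive, Activity Reduction vs. Inactive and Activity Reduction vs. Active. DESeq2 called 62, 21 and 115 with 3 groups and 77, 43 and 139 with the 2 groups compared. With DESeq2-style factors in edgeR, 0 were called for Activity Reduction vs. Inactive and 1 for Activity Reduction vs. Active. For Activity Reduction vs. Inactive, library totals gave 5, the term for mice M304 to M311 gave 1, mice M312 to M325 alone gave 0, and a threshold of a 20% change, chosen after the data were seen, gave 1. DESeq2 gave 1 called gene of the 53 pathway genes for Activity Reduction vs. Active in each of its fits, Camkk2, and its 3-group fit gave no adjusted p-value for 4 of the 8 genes in Activity Reduction vs. Inactive. Replicate numbers did not pair the mice. Same-numbered mice correlated at -0.234 to 0.439 over 21 pairs, 7 of them above 0.1, and 3 of 21 libraries were closest to their own number. With the replicate block, 4 genes were called for Activity Reduction vs. Inactive, and no call of the 8 genes changed.

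Gene length moved the levels. As percent of the summed level per kb of the 8 genes, the length of the longest transcript gave 22.1 for Prkaa2, 2.28 for Prkab1, 26.7 for Prkab2, 8.87 for Prkag1 and 1.23 for Prkag2, beside 25.03, 1.81, 29.4, 6.84 and 0.509 with merged exons. The length of the canonical transcript, added after the data were seen, gave 1.02 for Prkaa1, 14.4 for Prkaa2, 1.45 for Prkab1, 35.2 for Prkab2, 8.88 for Prkag1 and 0.991 for Prkag2. The pathway genes were also recomputed under alternatives added after the data were seen. Counting error was between 0.619% and 4.71% of the mean for the 8 genes, and their within-group SD lay between 0.07 and 0.35 on the log2 scale.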

Other observations

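The promoters of the 8 genes, 250 bases before to 50 after the annotated start (RefSeq, GRCm38.p6), differed in their content of CpG, as a ratio of observed to expected number. The median of 32851 promoters was 0.384. The ratio was 1.17 for Stk11, 1.04 for Prkaa1, 0.937 for Prkab1 and 0.929 for Prkaa2, then 0.730 for Prkag1, 0.666 for Prkab2 and 0.521 for Prkag3. Prkag2 has 3 promoters in this table, at 0.316, 0.717 and 0.962. These values describe sequence only and were set against no measurement.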
